A study of Mus musculus with 12 samples.

Results

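RNA levels of 8 genes that encode factors of the marrow stromal niche were examined in bone from a mouse model of severe osteogenesis imperfecta: *Cxcl12*, *Kitl*, *Il7*, *Lepr*, *Angpt1*, *Vcam1*, *Ebf3* and *Foxc1*. They were taken by gene symbol from the 47069 genes of the count matrix, and each of the 8 symbols stood on a single row. Tibia shafts flushed of marrow were collected from 12 male mice at 8 weeks of age, 4 in each of 3 groups. Jrt;Sost-ko mice carried the dominant *Col1a1* Jrt allele, a splice-site variant of the type I collagen gene, on 1 chromosome and had no functional copy of *Sost*, the gene of the Wnt inhibitor sclerostin. Jrt;Sost-het mice, which came from the same colony, carried the same *Col1a1* allele, and the study's methods, not the sample labels, give them 1 inactive *Sost* allele. WT mice had normal alleles of both genes and came from a parallel colony of the same mixed FVB/C57BL6 background, so that genotype and colony cannot be told apart in comparisons with WT. The *Sost* deletion was carried in the germline, in all cells, and no group with normal *Col1a1* and deleted *Sost* was among the 12 mice.

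Blood-forming stem cells in marrow are kept in place and alive by perivascular stromal cells, which surround the sinusoids and are marked by the leptin receptor and by abundant CXCL12. These cells secrete CXCL12, make stem cell factor (encoded by *Kitl*) in membrane-bound and soluble forms, and supply IL-7 to lymphoid progenitors. Osteoblast precursors, osteoblasts and endothelial cells make several of the same factors, and whole bone does not separate these sources. In such bulk RNA, fewer cells of a type and less RNA per cell cannot be told apart.

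For none of the 8 niche factors did a difference between groups pass the test after adjustment over all genes. The largest differences were in *Vcam1*, whose mean was 1.27-fold higher in Jrt;Sost-ko mice than that of Jrt;Sost-het, and in *Ebf3*, whose mean was 1.26-fold higher in Jrt;Sost-het than in WT mice. Their unadjusted p was under 0.05, and the mice of the groups overlapped for each of the 8 genes in each of the 3 comparisons. The background was low too: 0.00597% of all genes were called and 3.2% were free of overlap between the Jrt groups, 0% and 1.54% between Jrt;Sost-het and WT, and 0.00583% and 2.4% between Jrt;Sost-ko and WT mice. Across the mice of all groups, *Cxcl12* was correlated with *Kitl* and *Lepr* with *Vcam1* by Pearson's r. By rank 0 of the 28 pairs passed after adjustment, and without Jrt;Sost-het mouse 3 no pair passed by r. With group means removed, *Lepr* and *Vcam1* passed again (r = 0.863), and so did *Cxcl12* and *Ebf3* (r = 0.934). Over all mice *Cxcl12* and *Ebf3* did not pass (r = 0.615, permutation test, adjusted p = 0.161).

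Library totals lay between 24366061 and 44418863 counts on genes. Levels are given as CPM, the count of a gene relative to the total of its library, scaled by the trimmed mean of M-values (TMM) over the 12 libraries. *Sost* checked the label of the Jrt;Sost-ko mice: its mean was 53.4 CPM in WT and 39.9 CPM in Jrt;Sost-het mice, and it was 0.671 CPM in Jrt;Sost-ko. It was the single gene that passed an adjusted p of 0.05 between the Jrt groups (edgeR, log2 fold change -5.87, adjusted p = 0.013), and likewise between Jrt;Sost-ko and WT mice (log2 fold change -6.29, adjusted p = 0.00895). It did not separate Jrt;Sost-het from WT mice, which spanned 26.8 to 70.4 and 28.5 to 72.3 CPM (fold 0.751, interval 0.419 to 1.34, unadjusted p = 0.292, edgeR adjusted p = 1). The shafts carried the RNA of other tissues. Summed over 14 osteoblast genes the level was 23404 to 71239 CPM, and over 13 neutrophil genes it was still 18305 to 32684 CPM after flushing. Over 16 skeletal muscle genes the sum was 246 to 29227 CPM for WT, 2357 to 28313 CPM for Jrt;Sost-het and 52.6 to 12340 CPM for Jrt;Sost-ko mice. Over 11 epidermal genes it was 174.0 and 713.0 CPM in WT mice 3 and 4, against 9.98 to 20.0 CPM in the other 10 mice.

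All 8 niche factors passed the filter on low counts in each comparison, and the smallest single count was 95, for *Il7*. The niche factors were ordered by level after division by the length of the merged exons in the GENCODE annotation of GRCm38. On this scale of CPM per kb, *Cxcl12* was the highest, with a mean of 168 (range over 12 mice 135 to 223), followed by *Vcam1* with 37.7 (26.4 to 47.9). *Lepr* had 14.7 (10.4 to 17.9), *Kitl* 10.7 (9.14 to 13.8) and *Angpt1* 8.05 (6.59 to 10.6) CPM per kb. The transcription factors *Foxc1*, with 4.0 (2.86 to 4.7), and *Ebf3*, with 3.86 (3.09 to 4.99), came next, and *Il7* was lowest with 0.845 (0.599 to 1.16). In this order *Cxcl12* and *Vcam1*, *Vcam1* and *Lepr*, *Angpt1* and *Foxc1*, and *Ebf3* and *Il7* were neighbours whose ranges did not overlap, while *Lepr* and *Kitl*, *Kitl* and *Angpt1*, and *Foxc1* and *Ebf3* overlapped.

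**Figure D1:**
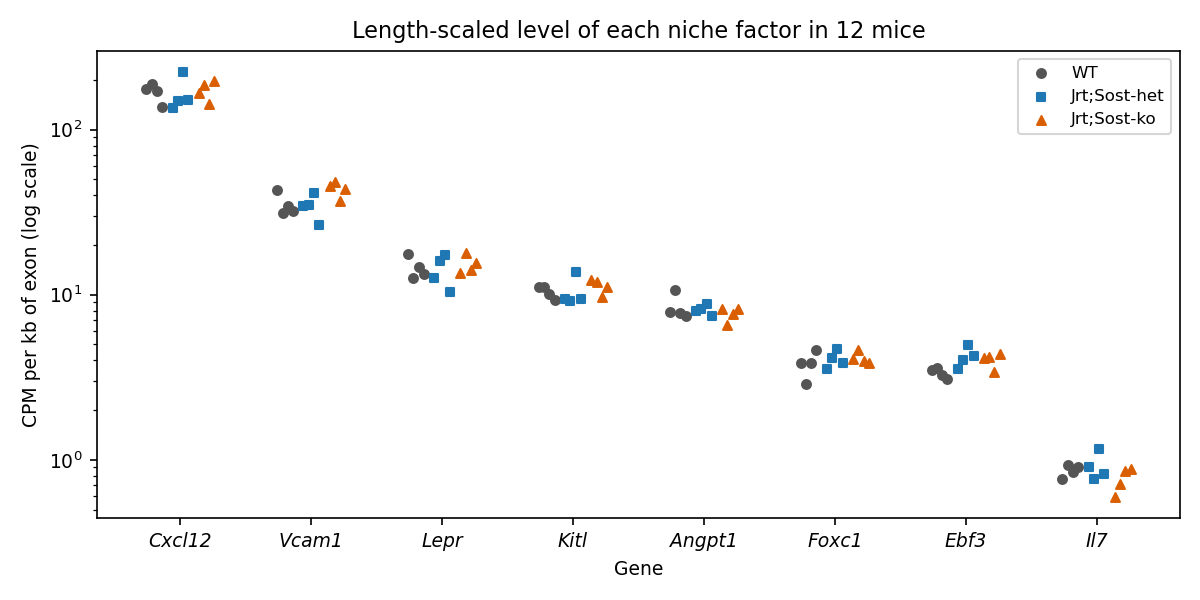
Length-scaled level (CPM per kb of merged exon, log scale) of each niche factor, ordered from high to low, with 1 point per mouse and colours and symbols for the groups. *Cxcl12* lies at 135 to 223 and *Il7* at 0.599 to 1.16, and the 3 groups lie over each other within each gene.

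For *Cxcl12* and *Ebf3*, which varied together within groups, and for *Lepr*, of the other pair of correlated genes, the 250 bases before their annotated starts are shown, 5′ to 3′ on the strand of the gene (RefSeq, GRCm38.p6), with matches to a searched motif in capitals. The windows are chr6:117168285-117168534 (plus strand), chr7:137314446-137314695 (minus strand) and, for the first of the 2 *Lepr* starts, chr4:101717157-101717406 (plus strand).
Cxcl12: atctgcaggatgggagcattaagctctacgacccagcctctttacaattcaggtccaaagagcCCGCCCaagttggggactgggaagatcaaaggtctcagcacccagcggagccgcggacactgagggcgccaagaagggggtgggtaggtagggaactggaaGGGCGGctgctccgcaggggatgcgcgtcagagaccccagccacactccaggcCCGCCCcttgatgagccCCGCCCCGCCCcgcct
Ebf3: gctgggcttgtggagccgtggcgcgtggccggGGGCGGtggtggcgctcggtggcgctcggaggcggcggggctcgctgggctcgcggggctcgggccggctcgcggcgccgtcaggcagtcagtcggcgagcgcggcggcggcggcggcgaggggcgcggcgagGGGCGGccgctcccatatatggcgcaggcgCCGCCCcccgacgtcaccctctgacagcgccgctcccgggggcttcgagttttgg
Lepr: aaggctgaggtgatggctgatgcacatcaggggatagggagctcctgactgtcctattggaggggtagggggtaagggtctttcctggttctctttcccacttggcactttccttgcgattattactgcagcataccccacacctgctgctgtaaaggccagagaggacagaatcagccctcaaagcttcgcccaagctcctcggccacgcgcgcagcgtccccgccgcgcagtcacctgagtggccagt

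The sequences matched 5 of the 8 genes (*Cxcl12*, *Kitl*, *Lepr*, *Ebf3* and *Foxc1*), with 6 starts. Searched on both strands were an early B cell factor motif (TCCC and GGGA with any 2 bases between them), a forkhead motif (TGTTTAC), the GC box (GGGCGG) and the TATA box (TATAAA). GC boxes were found 5 times before *Cxcl12*, the last pair overlapping, 3 times before *Kitl* and 3 times before *Ebf3*, once each before *Foxc1* and the second *Lepr* start, and not before the first *Lepr* start shown above. Of all 32851 mouse promoter windows of this length, 32.7% held at least 1 GC box. The TATA letters occurred once, before *Kitl*, and in 12.4% of all windows. Neither the early B cell factor letters (0.779% of all windows) nor the forkhead letters (3.17%) occurred in any of the 6. The window of *Ebf3* was 80.0% G and C and that of *Cxcl12* 64.4%, against a median of 52.4% over all windows.

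The ligands come first. *Cxcl12* (ENSMUSG00000061353, GRCm38 chr6:117168535-117181367, plus strand; the build is the same for the genes that follow) encodes the chemokine that retains stem cells and B cell precursors in marrow. Jrt;Sost-het mice 1 to 4 had 1106, 1206, 1825 and 1228 CPM, and Jrt;Sost-ko mice had 1357, 1517, 1158 and 1601 CPM. WT mice had 1445, 1543, 1395 and 1120 CPM. The highest of the 12 mice was Jrt;Sost-het mouse 3, the other Jrt;Sost-het mice were among the low ones, and the groups overlapped. The fold of Jrt;Sost-ko over Jrt;Sost-het was 1.05 (95% interval 0.803 to 1.37; edgeR adjusted p = 0.951). Against WT the fold was 0.979 (0.742 to 1.29) for Jrt;Sost-het and 1.03 (0.826 to 1.28) for Jrt;Sost-ko. All 3 intervals include 1. Without Jrt;Sost-het mouse 3, the log2 difference between the Jrt groups went from 0.07 to 0.249, with an edgeR adjusted p of 0.902. Leaving out each mouse of the Jrt groups in turn, it ran from -0.0141 to 0.249.

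*Kitl* (ENSMUSG00000019966, chr10:100015630-100100416, plus strand) encodes stem cell factor, the ligand of the receptor KIT. In Jrt;Sost-het mice 1 to 4 it had 55.5, 54.0, 81.4 and 55.3 CPM, in Jrt;Sost-ko mice 72.9, 70.5, 56.9 and 65.5 CPM, and in WT mice 66.1, 66.0, 59.6 and 54.7 CPM. Again Jrt;Sost-het mouse 3 was the highest of all mice and the other 3 of its group were at the bottom together with WT mouse 4. The fold of Jrt;Sost-ko over Jrt;Sost-het was 1.08 (0.866 to 1.35; edgeR adjusted p = 0.918), and without Jrt;Sost-het mouse 3 the log2 difference went from 0.11 to 0.267, with an unadjusted p of 0.0182 and an adjusted p of 0.902 (edgeR). Leaving out each mouse of the Jrt groups in turn, this difference ran from 0.0517 to 0.267. Means of Jrt;Sost-het and WT mice were both 61.6 CPM.

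*Il7* (ENSMUSG00000040329, chr3:7569994-7613760, minus strand) encodes the cytokine that early B and T cells need. It was scarce, with 95 to 212 counts per mouse. Jrt;Sost-het mice 1 to 4 had 5.14, 4.34, 6.55 and 4.63 CPM, Jrt;Sost-ko mice 3.39, 4.07, 4.81 and 4.99 CPM, and WT mice 4.34, 5.3, 4.77 and 5.12 CPM. The 2 lowest of the 12 values were those of Jrt;Sost-ko mice 1 and 2, while the other 2 mice of this group lay among the WT mice. The mean of Jrt;Sost-ko was below that of Jrt;Sost-het, with a fold of 0.837 (0.631 to 1.11; edgeR adjusted p = 0.901). Relative to WT the fold was 0.888 (0.693 to 1.14). An antisense transcript, *Gm16685*, shares 105 bases of its exons, 1.85% of their length, and had 0.414 to 1.68 CPM of its own.

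*Angpt1* (ENSMUSG00000022309, chr15:42424723-42676977, minus strand) encodes angiopoietin 1, the ligand of the TEK receptor of endothelial and stem cells. Its values in Jrt;Sost-het mice 1 to 4 were 41.3, 42.9, 45.7 and 38.4 CPM, in Jrt;Sost-ko mice 42.5, 34.3, 39.8 and 42.9 CPM, and in WT mice 41.0, 55.1, 40.4 and 38.5 CPM. WT mouse 2 stood above the other 11 mice and Jrt;Sost-ko mouse 2 below them. *Angpt1* had the narrowest interval between the Jrt groups, with a fold of 0.947 (0.833 to 1.08; edgeR adjusted p = 0.904). The antisense transcript *Gm17473* overlaps 14.2% of its exon bases, and its own level was at most 0.299 CPM.

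Of the surface proteins, *Lepr* (ENSMUSG00000057722, chr4:101717404-101815352, plus strand) encodes the leptin receptor, the marker by which these stromal cells are usually recognised. Jrt;Sost-het mice 1 to 4 had 89.3, 113, 122 and 73.1 CPM, Jrt;Sost-ko mice 95.6, 126, 99.9 and 110.0 CPM, and WT mice 124, 89.6, 104 and 94.3 CPM. High and low mice were found in each group, the lowest being Jrt;Sost-het mouse 4. The fold of Jrt;Sost-ko over Jrt;Sost-het was 1.09 (0.851 to 1.39; edgeR adjusted p = 0.918), and neither Jrt group differed from WT by more than 0.07 in log2 fold change.

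*Vcam1* (ENSMUSG00000027962, chr3:116109949-116129688, minus strand) encodes the adhesion molecule that binds the integrin of blood cells made of ITGA4 and ITGB1. Jrt;Sost-ko mice 1 to 4 had 406, 425, 326 and 388 CPM. In Jrt;Sost-het mice the values were 305, 311, 368 and 234 CPM, and in WT mice 383, 277, 306 and 286 CPM. The 3 highest values of all were in Jrt;Sost-ko mice, and the fourth mouse of that group, mouse 3, lay below Jrt;Sost-het mouse 3 and WT mouse 1. The fold of Jrt;Sost-ko was 1.27 over Jrt;Sost-het (1.03 to 1.57; log2 fold change 0.34, SE 0.135; unadjusted p = 0.0316, edgeR adjusted p = 0.901). Over WT it was 1.24 (1.02 to 1.51; unadjusted p = 0.0365, edgeR adjusted p = 1), and both comparisons use the same Jrt;Sost-ko mice. In the exact two-sided permutation test over 70 arrangements of 8 mice each gave p = 0.0571, where the smallest p that this design can give is 0.0286. Between the Jrt groups *Vcam1* ranked 546 by p among 16739 genes. The mean of Jrt;Sost-het was 0.977-fold that of WT (0.776 to 1.23). The antisense transcript *Gm43109* overlaps 61 bases of the *Vcam1* exons, 0.688% of their length, and had at most 0.157 CPM.

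The transcription factors were last. *Ebf3* (ENSMUSG00000010476, chr7:137193673-137314445, minus strand) encodes an early B cell factor that in marrow is made by the stromal cells rather than by blood cells. WT mice 1 to 4 had 32.1, 33.1, 30.1 and 28.5 CPM, Jrt;Sost-het mice 32.9, 36.9, 46.0 and 39.1 CPM, and Jrt;Sost-ko mice 38.0, 38.9, 31.4 and 40.2 CPM. WT mice were low, but the lowest mouse of each Jrt group lay within the WT range. The fold over WT was 1.26 in Jrt;Sost-het (1.07 to 1.48; log2 fold change 0.33, SE 0.103; unadjusted p = 0.0115, edgeR adjusted p = 1) and 1.21 in Jrt;Sost-ko mice (1.05 to 1.39; unadjusted p = 0.015, edgeR adjusted p = 1). The exact permutation p was 0.0571 and 0.0857, respectively. Between the Jrt groups the fold was 0.959 (0.802 to 1.15). Both comparisons with WT share the same 4 WT mice, 2 of which carried epidermal RNA. Without those 2 mice the log2 fold changes were 0.266 and 0.194. The unadjusted p was no longer under 0.05, at 0.0803 and 0.125 (edgeR adjusted p 0.311 and 0.479). That fit held only WT mice 1 and 2, and so was less precise. The part of epidermal RNA in the *Ebf3* difference was not tested. An antisense transcript, *Gm45278*, shares 355 bases of the *Ebf3* exons, 3.85% of their length, and has no row in the count matrix.

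*Foxc1* (ENSMUSG00000050295, chr13:31806633-31812476, plus strand) encodes a forkhead factor needed for stromal niche cells to form and to keep making CXCL12 and stem cell factor. Its values were 20.6, 24.3, 27.5 and 22.5 CPM in Jrt;Sost-het, 23.7, 27.0, 23.2 and 22.6 CPM in Jrt;Sost-ko, and 22.5, 16.7, 22.7 and 27.1 CPM in WT mice 1 to 4. WT mice held both the lowest value, in mouse 2, and one of the 3 highest, in mouse 4. *Foxc1* had a fold of 1.02 between the Jrt groups (0.871 to 1.19; edgeR adjusted p = 0.966), and the folds over WT were 1.07 (0.843 to 1.36) for Jrt;Sost-het and 1.09 (0.87 to 1.37) for Jrt;Sost-ko mice.

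**Figure D2:**
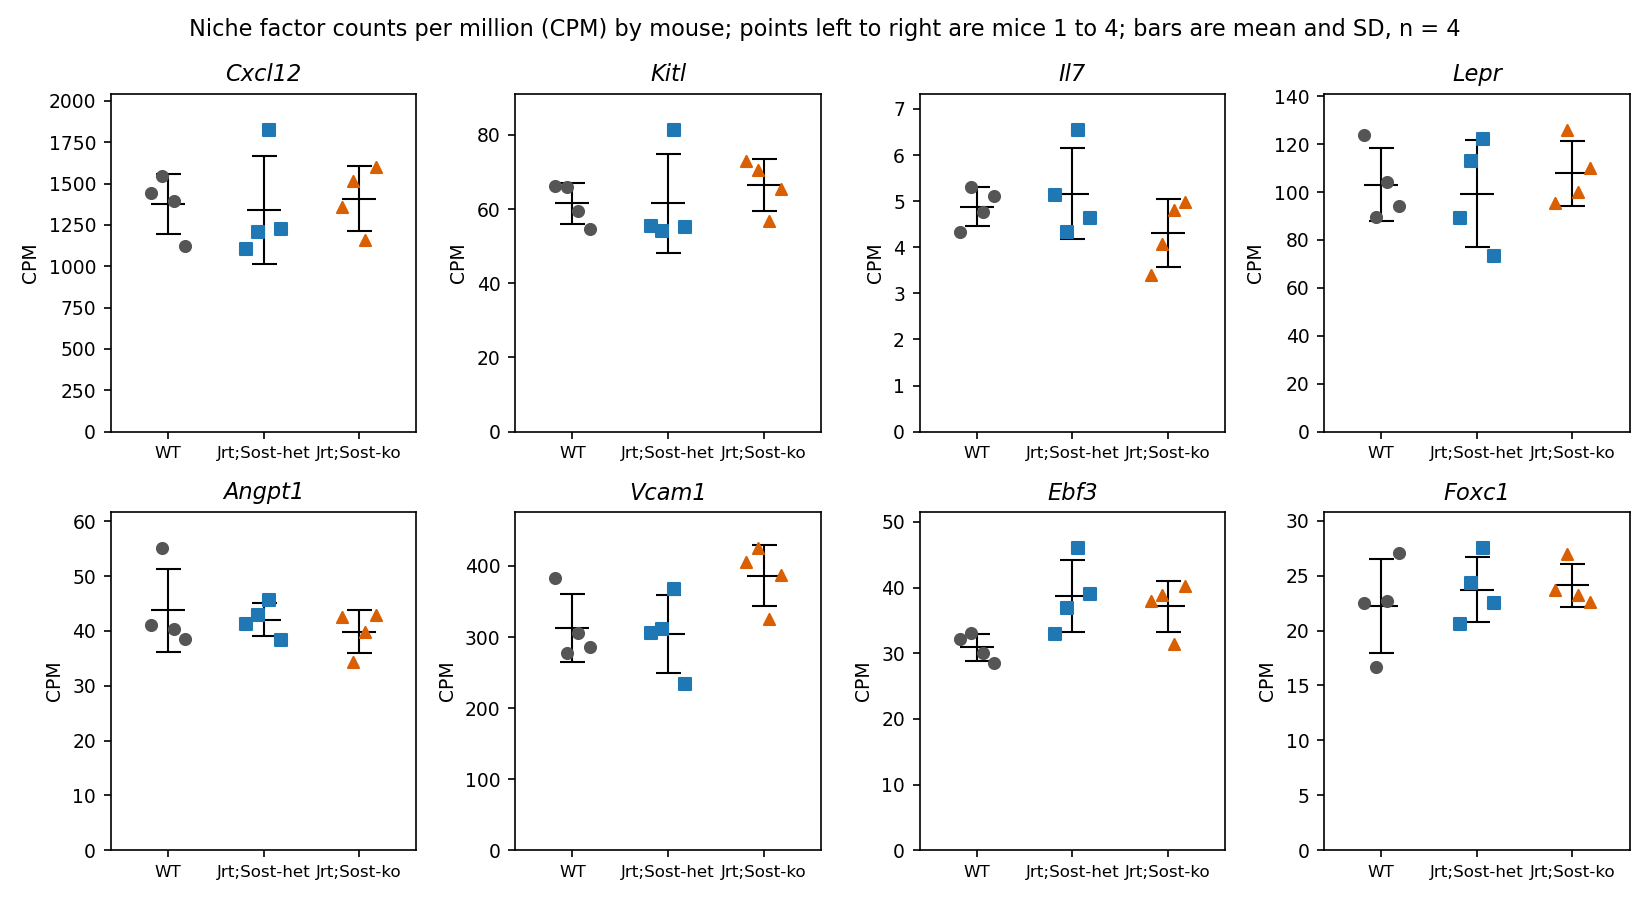
CPM of each niche factor in each mouse, by group; points from left to right are mice 1 to 4, and the bars are the mean and SD of 4 mice. Groups overlap in each panel, and Jrt;Sost-het mouse 3 is the highest square in each of the 8 panels.

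Counted over the 8 niche factors, 0 passed the adjusted threshold between the Jrt groups, where 0.00597% of all genes did, and 0 were free of overlap, against 3.2% of all genes. An unadjusted p under 0.05 was found for 1 of the 8, *Vcam1*, and for 5.02% of all genes. Of the 8, 5 had the higher mean in Jrt;Sost-ko, as did 50.4% of all genes, and their median log2 fold change was 0.05, where that of all genes was 0.0013. Between Jrt;Sost-het and WT mice 0 of the 8 passed, against 0% of all genes (0 by DESeq2 and 0 by limma-voom as well). There 1 of the 8, *Ebf3*, and 2.14% of all genes had an unadjusted p under 0.05, 0 of the 8 and 1.54% of all genes were free of overlap, and 4 of the 8 and 51.3% of all genes had the higher mean in Jrt;Sost-het. Between Jrt;Sost-ko and WT mice 0 of the 8 passed, against 0.00583% of all genes. The unadjusted p was under 0.05 for 2 of the 8, *Vcam1* and *Ebf3*, and for 3.89% of all genes, 0 of the 8 and 2.4% of all genes were free of overlap, and 6 of the 8 and 49.1% of all genes had the higher mean in Jrt;Sost-ko. Both comparisons with WT share the WT mice, and both with Jrt;Sost-het share those mice. The number of all genes with an unadjusted p under 0.05 depended on single mice. For Jrt;Sost-het against WT it was 359 of 16775 genes, 1591 of 16934 without WT mouse 4 and 3408 of 17196 without WT mice 3 and 4. For Jrt;Sost-ko against WT it was 668 of 17155, 370 of 17540 without Jrt;Sost-ko mouse 2, 1204 of 17319 without WT mouse 4 and 2224 of 17513 without WT mice 3 and 4. For the Jrt groups it was 841 of 16739, and 509 of 16934 without Jrt;Sost-ko mouse 2. Over the 3 comparisons the smallest adjusted p of a niche factor was 0.901 (edgeR), and DESeq2 and limma-voom also called 0 of the 8 in each.

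**Figure D3:**
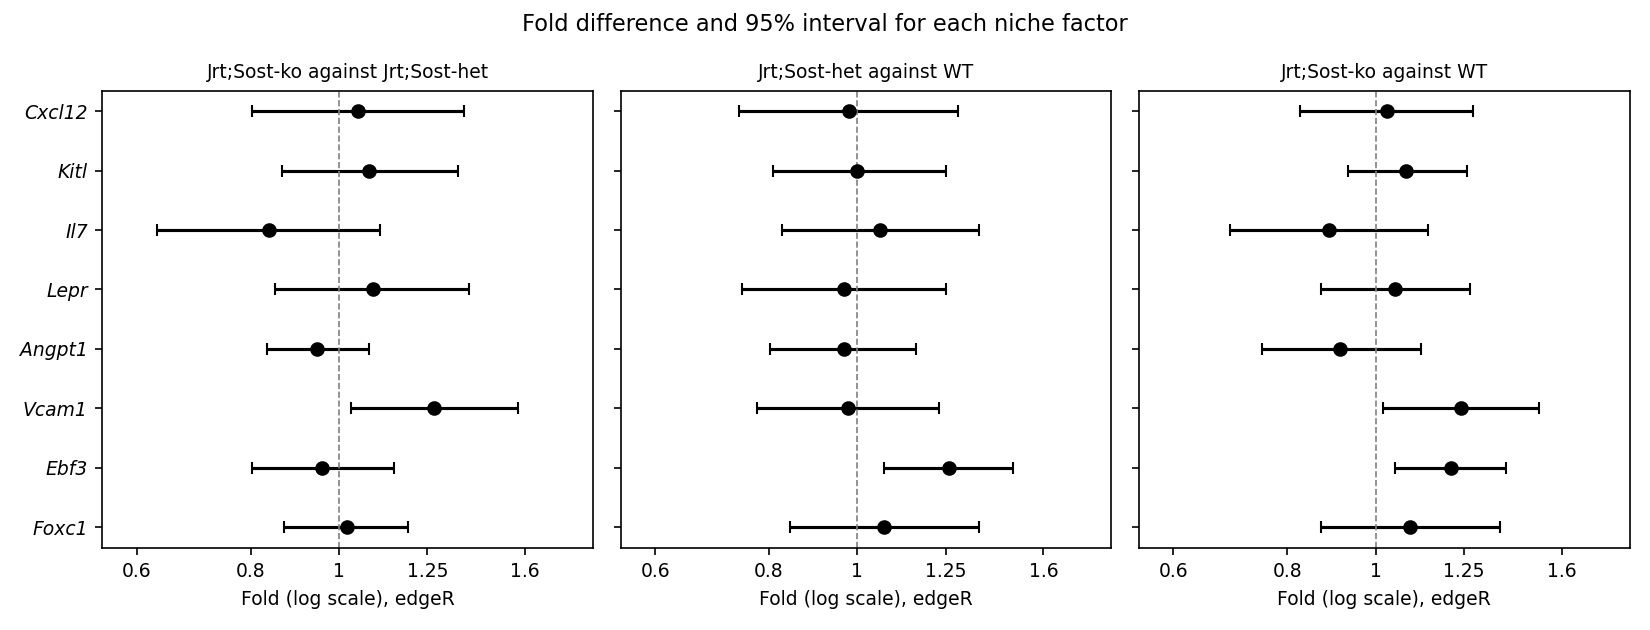
Fold difference (log scale) with its 95% interval from edgeR for each niche factor, in 1 panel per comparison of 4 against 4 mice. The intervals leave out 1 for *Vcam1* in both panels with Jrt;Sost-ko (1.27 and 1.24) and for *Ebf3* in both panels with WT (1.26 and 1.21), before any adjustment for the number of genes.

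A single mouse stood out among the niche factors. Jrt;Sost-het mouse 3 had the highest level of all 12 mice for 5 of the 8 genes, *Cxcl12*, *Kitl*, *Il7*, *Ebf3* and *Foxc1*, and was above its group mean for 8 of 8. Averaged over the 8 genes, its log2 CPM was 0.3 above the mean of the 12 mice, where the other 11 mice lay between -0.17 and 0.11. Among the Jrt;Sost-het mice it also had the highest summed level of the 20 marrow stroma genes, 2962 CPM against 2244, 2668 and 2756, of the 10 macrophage genes, 985 CPM against 767 to 885, and of the 13 neutrophil genes, 27944 CPM against 21450 to 26284. Its B lineage sum, 823 CPM against 729 to 1005, and its erythroid sum, 20741 CPM against 16008 to 24259, lay within the range of the other mice of that group. Its osteoblast sum was the lowest of that group, 35805 CPM against 38649 to 57711. The part of these tissue differences in the niche factor levels was not tested. Over the 12 mice the coefficient of variation of the niche factors was between 12.1% (*Angpt1*) and 17.5% (*Vcam1*), and the median of 17245 genes was 13.9%.

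**Figure D4:**
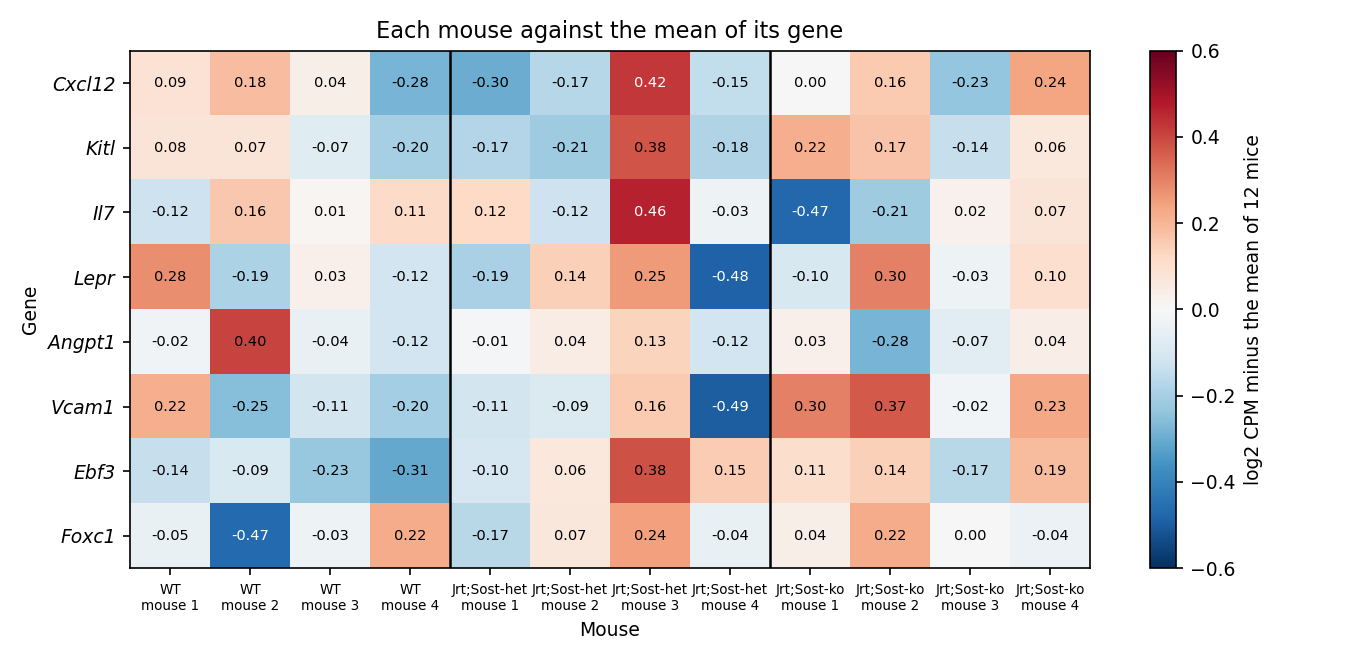
Log2 CPM of each niche factor in each mouse minus the mean of that gene over the 12 mice, from blue (below) to red (above). The column of Jrt;Sost-het mouse 3 is above 0 for all 8 genes, and Jrt;Sost-het mouse 4 is lowest for *Lepr* and *Vcam1*.

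Relations between the niche factors across the 12 mice were then examined, as Pearson's r of log2 CPM with 100000 permutations and adjustment over the 28 pairs. Of the 28, 23 were positive and 2 passed. *Cxcl12* and *Kitl* had r = 0.872 (permutation p = 0.00042, adjusted p = 0.0118) and Spearman's rho 0.741 (permutation p = 0.00766, adjusted p = 0.107). Without the 2 mice most distant from the median of *Cxcl12*, r was 0.782. *Lepr* and *Vcam1* had r = 0.792 (permutation p = 0.00203, adjusted p = 0.0284) and rho 0.762 (permutation p = 0.00538, adjusted p = 0.107), and without the 2 mice most distant from the median of *Lepr*, r was 0.557. By rank 0 of the 28 pairs passed after adjustment, and without Jrt;Sost-het mouse 3 none of the 28 passed by r. Leaving out each mouse in turn, r lay between 0.801 and 0.936 for *Cxcl12* and *Kitl* and between 0.659 and 0.909 for *Lepr* and *Vcam1*. The values within a library share 1 scaling factor.

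With the group means removed and the permutations kept within groups, 2 of the 28 pairs passed, 1 of them the same. *Lepr* and *Vcam1* had r = 0.863 (permutation p = 0.00197, adjusted p = 0.0276), with r = 0.985 for WT, 0.927 for Jrt;Sost-het and 0.515 for Jrt;Sost-ko mice. *Cxcl12* and *Ebf3* had r = 0.934 (permutation p = 9e-05, adjusted p = 0.00252), with 0.938, 0.942 and 0.953 in the same order. Their promoter windows are those printed above. Within each of the 3 groups the 4 mice stood in the same order for both genes, as the plot of pairs shows, and leaving out any single mouse left this within-group r between 0.903 and 0.952. Over all mice, with the WT mice lying lower in *Ebf3*, r was 0.615 (permutation p = 0.0344, adjusted p = 0.161) and rho 0.608 (permutation p = 0.0404, adjusted p = 0.283), and 0.395 without the 2 mice most distant from the median of *Cxcl12*. *Cxcl12* and *Kitl* had a within-group r of 0.882 (permutation p = 0.011, adjusted p = 0.0771). The most negative pair, *Angpt1* and *Foxc1* with r = -0.659 (permutation p = 0.0332, adjusted p = 0.161) and rho -0.161 (permutation p = 0.618, adjusted p = 0.869), rested on WT mouse 2 and Jrt;Sost-ko mouse 2, without which r was 0.251.

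**Figure D5:**
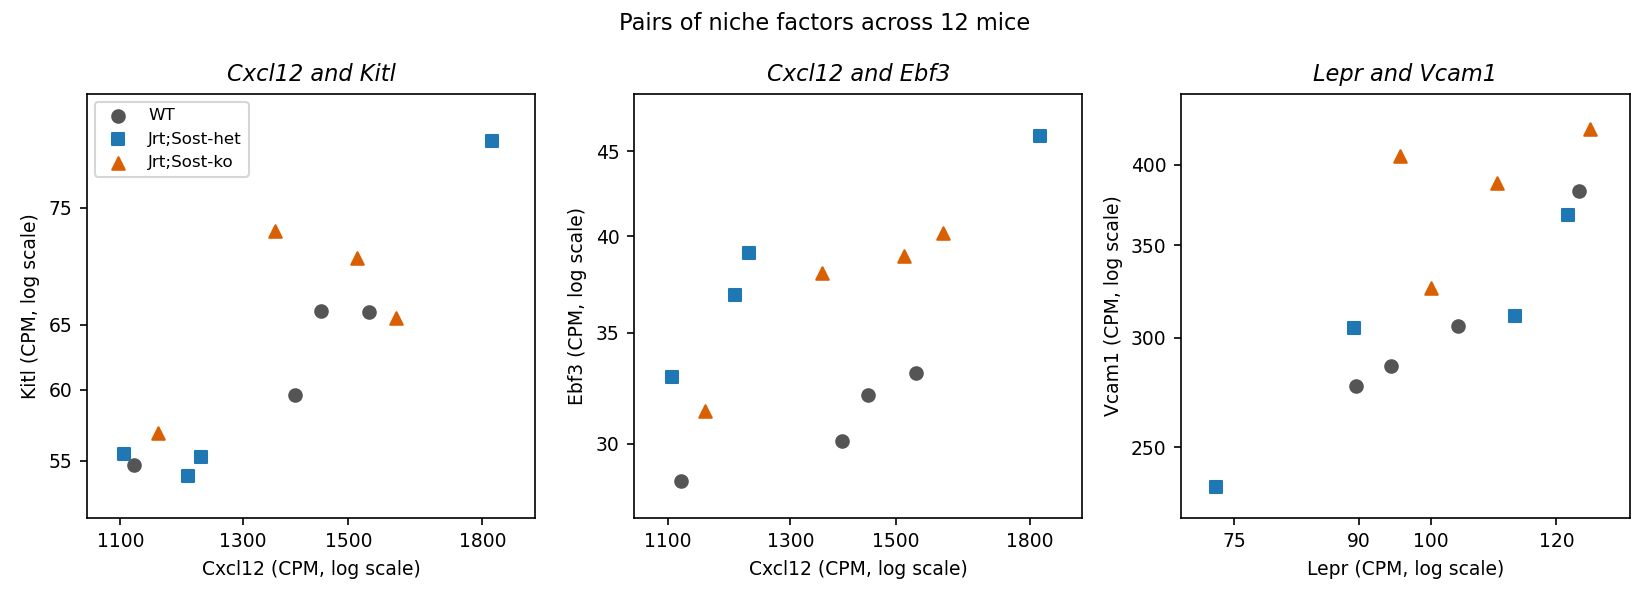
CPM of 3 pairs of niche factors, both axes on a log scale, with 1 point per mouse and colours and symbols for the groups. Over all mice r was 0.872 for *Cxcl12* and *Kitl* and 0.792 for *Lepr* and *Vcam1* (0.863 within groups). The Jrt;Sost-ko mice held the 3 highest *Vcam1* values. For *Cxcl12* and *Ebf3* r was 0.934 within groups and 0.615 over all mice, with the WT mice lower in *Ebf3*.

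The genes most like each niche factor over the 12 mice, by r among 17244 other expressed genes, are given as a description. For *Cxcl12* they were *Bak1* (0.92), *Triap1* (0.92) and *Gapt* (0.918), and for *Kitl* they were *Dnttip2* (0.897), *Trac* (0.887) and *Fbxw11* (0.886). *Lepr* was most like *Tfpi* (0.904), *Cyp4b1* (0.859) and *Ccr1l1* (0.852). *Vcam1* was most like *Srp72* (0.973), *Ahcyl1* (0.914) and *Tmed7* (0.882). The nearest genes were *Txk* (0.903), *Cd7* (0.889) and *Ms4a7* (0.88) for *Ebf3*, and *Lgmn* (0.922), *Flt4* (0.891) and *Mmrn2* (0.885) for *Foxc1*. *Angpt1* had *Hpse* (0.9), *Pacs1* (0.896) and *AI413582* (0.884), and *Il7* had *2510046G10Rik* (0.906), *Bbs9* (0.843) and *Vsnl1* (0.842). The genes of the pairs that passed over all mice ranked high but not first in each other's lists. *Cxcl12* was number 6 for *Kitl* and *Kitl* number 30 for *Cxcl12*, *Vcam1* was number 23 for *Lepr* and *Lepr* number 32 for *Vcam1*. Niche factors of all other pairs ranked between number 186 (*Kitl* for *Vcam1*) and number 16966 (*Angpt1* for *Foxc1*). Among them, *Ebf3* was number 1664 for *Cxcl12* and *Cxcl12* number 241 for *Ebf3*.

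Muscle and blood RNA left on the shafts were set against the niche factors in the same way. With the mean log2 CPM of the 16 muscle genes, 0 of 8 niche factors had a relation that passed, r lying between -0.486 and 0.472 (permutation test, smallest adjusted p = 0.454; rho -0.469 to 0.406, smallest adjusted p = 0.329). With the marrow blood cell genes 0 of 8 passed, r lying between -0.53 and 0.622 (permutation test, smallest adjusted p = 0.257; rho -0.462 to 0.615, smallest adjusted p = 0.266). The highest was *Cxcl12*, with r = 0.622 (permutation p = 0.0321, adjusted p = 0.257), rho 0.615 (permutation p = 0.0374), r = 0.619 within groups and r = 0.491 without the 2 mice most distant from the median of the blood cell genes.

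Partner genes of the niche factors were counted next, as 15 receptors, counter-ligands and related transcription factors. Between the Jrt groups 0 of 15 passed, 9 had the higher mean in Jrt;Sost-ko and 6 the lower, and the median log2 fold change was 0.01. An unadjusted p under 0.05 was found for 2 of the 15 (edgeR), beside 5.02% of all genes. Of all genes 0.00597% passed and 50.4% had the higher mean in Jrt;Sost-ko. *Cxcr4*, the receptor of CXCL12, had a mean of 178 CPM in Jrt;Sost-ko and of 177 CPM in Jrt;Sost-het mice. *Kit*, the receptor of stem cell factor, had 66.2 and 71.3 CPM, and *Il7r*, the receptor of IL-7, had 43.3 and 41.7 CPM. The integrin subunit *Itga4*, a partner of VCAM1, had 162, 158, 240.0 and 254 CPM in Jrt;Sost-ko mice 1 to 4 and 168, 172, 160.0 and 148 CPM in Jrt;Sost-het mice (log2 fold change 0.33, unadjusted p = 0.0692, edgeR adjusted p = 0.901). Its difference lay in Jrt;Sost-ko mice 3 and 4, which are not those with the most *Vcam1*. *Tie1*, an endothelial receptor that acts with TEK, had means of 40.3 and 47.2 CPM (log2 fold change -0.23, unadjusted p = 0.0395, edgeR adjusted p = 0.901).

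*Ebf2*, a relative of *Ebf3* that is active in precursors of brown fat and bone, was the single partner without overlap, 1 of 15 (6.67%) beside 3.2% of all genes. Jrt;Sost-ko mice 1 to 4 had 3.32, 2.62, 3.58 and 2.71 CPM and Jrt;Sost-het mice 3.86, 4.13, 4.44 and 6.5 CPM, from 83 to 157 counts. The log2 fold change was -0.63 (SE 0.205, unadjusted p = 0.0136, edgeR adjusted p = 0.901), and the exact permutation p was 0.0286, the smallest this design can give. WT mice had 3.82, 2.8, 5.74 and 6.4 CPM and so spanned both. The highest *Ebf2* levels, in Jrt;Sost-het mouse 4 and WT mice 3 and 4, were in mice whose muscle genes summed to 28313, 12287 and 29227 CPM, while Jrt;Sost-ko mouse 3, with 12340 CPM of muscle genes, had 3.58 CPM of *Ebf2*. The part of muscle in the *Ebf2* difference was not tested.

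Between Jrt;Sost-het and WT mice 0 of the 15 partners passed, with 12 higher and 3 lower, a median log2 fold change of 0.02 and 0 with an unadjusted p under 0.05 (edgeR). Of all genes 0% passed, 51.3% were higher and 2.14% had an unadjusted p under 0.05. Between Jrt;Sost-ko and WT mice 0 of 15 passed, with 11 higher, 4 lower, a median of 0.05 and 0 with an unadjusted p under 0.05 (edgeR). Of all genes 0.00583% passed, 49.1% were higher and 3.89% had an unadjusted p under 0.05. The widest values of the partners in that comparison were those of *Lep*, the gene of leptin and ligand of LEPR, at 0.63, and of *Ebf2* at -0.61.

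Further genes of marrow stroma, a list of 20 that holds secreted factors, adipocyte-lineage genes and mesenchymal receptors, were counted likewise. Between the Jrt groups 0 of 20 passed, 10 were higher and 10 lower, 1 had an unadjusted p under 0.05 (edgeR), beside 5.02% of all genes, and the median log2 fold change was -0.01. The widest were *Nes* (0.24), encoding an intermediate filament of perivascular cells, and *Prrx1* (0.18), a transcription factor of limb mesenchyme, above 0, and the cytokine *Il15* (-0.33, unadjusted p = 0.0312, edgeR adjusted p = 0.901) and *Rarres2* (-0.24), which encodes chemerin, below. Between Jrt;Sost-het and WT mice 0 of 20 passed, beside 0% of all genes, and 17 were higher and 3 lower, where 51.3% of all genes were higher. Of the 20, 0 had an unadjusted p under 0.05 (edgeR) and 0 were free of overlap, beside 2.14% and 1.54% of all genes. The median was 0.10, with *Rarres2* (0.36) and *Il34* (0.27) at the upper and *Esm1* (-0.16) and *Bst1* (-0.03) at the lower end. Between Jrt;Sost-ko and WT mice 0 of 20 passed, beside 0.00583% of all genes, and 15 were higher and 5 lower, where 49.1% of all genes were higher. Here too 0 of 20 had an unadjusted p under 0.05 (edgeR) and 0 were free of overlap, beside 3.89% and 2.4% of all genes. The median was 0.10, with *Cdh11* (0.32) and *Prrx1* (0.30) at the upper and *Il15* (-0.16) and *Igfbp5* (-0.08) at the lower end. Beside these counts, 12 of 14 osteoblast genes had the higher mean in Jrt;Sost-ko of the Jrt groups (median log2 fold change 0.29), 11 of 12 endothelial genes had the lower one (median -0.1) and so had 16 of 16 muscle genes (median -0.98), where 50.4% of all genes had the higher. In these lists 0 genes passed. An unadjusted p under 0.05 was found for 3 of 14 osteoblast, 3 of 12 endothelial and 0 of 16 muscle genes (edgeR), beside 5.02% of all genes, and 2, 1 and 0 of them were free of overlap, beside 3.2% of all genes. Against WT, 14 of 14 osteoblast, 12 of 12 endothelial and 10 of 16 muscle genes had the higher mean in Jrt;Sost-het, beside 51.3% of all genes. In Jrt;Sost-ko these were 14 of 14, 8 of 12 and 0 of 16, beside 49.1% of all genes, and again 0 passed. The part of osteoblasts and endothelial cells in the niche factor levels was not tested.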

How the data were processed

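RNA from tibia shafts was sequenced by the authors as paired-end poly(A) libraries, aligned to GRCm38 with STAR in the GenPipes workflow and counted on Ensembl genes. The counting tool, its strand setting and the annotation release are not given in the sources used here, so a gene and an antisense partner that overlaps it cannot be told apart. The submitters' processing notes also name bcl2fastq 2.20, Cufflinks, Cuffdiff and DESeq. The deposited matrix holds raw whole-number counts for 47069 genes in 12 mice, without normalization. The authors' comparison tables, with fold changes and p-values, and the single-mouse tables were not used here.

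Groups of 4 mice came from the genotype labels, and mice are numbered in label order, which pairs none. The 8 mice of each comparison were fitted separately with the quasi-likelihood test of edgeR 4.0.16 under R 4.3.3, after filterByExpr and TMM scaling. A gene was called at a p below 0.05 after Benjamini-Hochberg adjustment over all genes tested. Standard errors and 95% intervals are from the same fit. A prior count of 2 was added for log2 CPM. Exact p-values of single genes are from two-sided permutation over 70 arrangements, and those of correlations from 100000 permutations, also two-sided, in Python 3.11.15 with scipy 1.17.1. No overlap means that each mouse of 1 group lay above each mouse of the other. Alternatives included DESeq2 1.42.0 and limma 3.58.1. The fits were tested on simulated data.

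Sums over 12 listed epidermal genes left out *Flg*, whose symbol stands on several rows. Exon lengths and positions are from GENCODE M21 (GRCm38). Named were the 8 niche factors, 15 partner genes, the 2 highest and 2 lowest of 20 marrow stroma genes in each comparison, the 3 genes most like each niche factor, and *Sost*. The members and lists were chosen with earlier results of these data known. Labels name separate mice, so p-values measure the spread between mice.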

Additional observations from a re-analysis of the deposited data

Results flagged for a closer look

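A mouse was picked out where its gap to the nearest mouse of its group of 4, divided by the range of the group, was above Dixon's 95% critical value for 4 mice. Of 102 groups examined, 7 had such a mouse, and chance alone gives about 1 in 20, here 5.1. Jrt;Sost-het mouse 3 was the highest of its group for *Kitl* (ratio 0.946, 81.4 CPM against 54.0 to 55.5) and for *Cxcl12* (ratio 0.831, 1825 CPM against 1106 to 1228). WT mouse 2 was highest for *Angpt1* (0.847, 55.1 CPM against 38.5 to 41.0). Among the partner genes, Jrt;Sost-ko mouse 3 was highest for *Tek* (0.952, 33.7 CPM against 26.8 to 27.1), Jrt;Sost-ko mouse 4 was lowest for *Itgb1* (0.844, 429 CPM against 465 to 471), and WT mouse 4 was lowest for *Itgb7* (0.925, 61.6 CPM against 79.9 to 81.4). For the mean log2 CPM of the epidermal genes, Jrt;Sost-ko mouse 3 was highest (0.941, -0.756 against -1.54 to -1.5).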

How the results depend on the processing

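Of 424 log2 fold changes of the 8 niche factors under other settings, 392 kept their direction and 32 turned it, 0 passed the adjusted threshold, and the smallest adjusted p was 0.311, for *Ebf3* between Jrt;Sost-het and WT mice without WT mice 3 and 4. *Vcam1* stayed higher in Jrt;Sost-ko mice under each setting tried (log2 fold change 0.242 to 0.441 over Jrt;Sost-het, 0.235 to 0.418 over WT), as did *Ebf3* over WT (0.24 to 0.402 in Jrt;Sost-het, 0.194 to 0.338 in Jrt;Sost-ko). Those that turned had reported values of at most 0.129 in size and turned values of at most 0.155. With the muscle genes as a covariate, *Cxcl12* was at -0.00623, 0.00808 and -0.0199 for the Jrt groups, Jrt;Sost-het against WT and Jrt;Sost-ko against WT, and *Angpt1* at 0.0244 for Jrt;Sost-het against WT. *Kitl* for Jrt;Sost-het against WT was at -0.0434 with limma-voom and -0.0854 without WT mice 3 and 4, and *Cxcl12* for Jrt;Sost-ko against WT at -0.0801 without them.

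Leaving out each mouse in turn, the log2 fold changes that turned ranged as follows. Between the Jrt groups they were -0.0141 to 0.249 (*Cxcl12*), -0.135 to 0.0268 (*Ebf3*) and -0.0387 to 0.0974 (*Foxc1*). For Jrt;Sost-het against WT they were -0.212 to 0.0514 (*Cxcl12*), -0.155 to 0.0647 (*Kitl*), -0.0442 to 0.164 (*Il7*), -0.158 to 0.0698 (*Lepr*), -0.114 to 0.083 (*Angpt1*), -0.134 to 0.0755 (*Vcam1*) and -0.0123 to 0.201 (*Foxc1*). For Jrt;Sost-ko against WT they were -0.0478 to 0.119 (*Cxcl12*), -0.0142 to 0.169 (*Lepr*) and -0.187 to 0.00297 (*Angpt1*).

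Over all genes, 1 was called between the Jrt groups, against 15 with DESeq2, 0 with limma-voom, 0 with the muscle covariate and 0 to 3 without single mice. Between Jrt;Sost-ko and WT mice 1 was called, against 2 without a filter on low counts, 13 with DESeq2, 2 with limma-voom and 0 to 2 without single mice. Between Jrt;Sost-het and WT mice 0 were called under each setting. The 2 pairs of niche factors that passed became 0 to 3 without single mice, so that their number rose as well as fell. It fell to 0 without Jrt;Sost-het mouse 3. It fell to 1 without Jrt;Sost-het mouse 4, Jrt;Sost-ko mouse 2, 3 or 4, or WT mouse 1 or 4. The cause was not tested. No paired analysis was possible because the labels give the groups no shared mouse numbers.

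With 4 mice a group, precision differed by gene. Between the Jrt groups the 95% interval of the fold was narrow for *Angpt1* (0.833 to 1.08) and wide for *Il7* (0.631 to 1.11), the gene with the fewest counts. *Cxcl12*, with at least 29252 counts in each mouse, had an interval of 0.803 to 1.37, and its SE was 0.171, beside 0.18 for *Il7*. The share of counting error in the spread of *Il7* was not tested.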
